A study of Mus musculus with 6 samples.

Results

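The genes described here encode voltage-gated potassium channel subunits of the Kv3 family (Kcnc1, Kcnc2 and Kcnc4), the Kv2 family (Kcnb2) and the modifier subunit Kcng4. They were named as a list of 5 genes, and the values used are those of the brightest probe set (highest mean over the arrays) among those that the annotation of the Affymetrix mouse array gives to that gene alone. Of the 5 genes 4 had such a probe set, among 18193 genes on the array that had one. No probe set carried the name Kcnb2 here, so Kcnb2 was not analysed. All 4 passed the filter on low values described below, which 12958 genes passed. Kcng4 passed it only through its values at the later age.

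RNA came from 3 auditory nuclei in the brainstem of male C57BL/6J mice at 2 ages. The auditory nerve ends in the ventral cochlear nucleus (VCN). Of the other nuclei, the lateral superior olive (LSO) compares the input of both ears, and the medial trapezoid body nucleus (MNTB) turns excitation from the opposite ear into inhibition. Each of the 6 arrays held 1 nucleus at 1 age, as a pool of 6 animals at postnatal day 3 (P3), before the onset of hearing, or of 3 animals at day 14 (P14), shortly after it. No combination was repeated, each sample held every cell type of the dissected tissue, and the labels give no treatment or transgene for any group.

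Kv3 channels open only at strongly depolarised voltages and close very quickly. They shorten the action potential and let auditory neurons fire at high rates, a role best known for Kcnc1 (Kv3.1) in the MNTB. Kv2 channels are slower delayed rectifiers, and Kv2.2, the product of Kcnb2, is known at the initial segment of MNTB axons. Kcng4 encodes Kv6.4, a silent subunit that forms no working channel by itself but joins Kv2 subunits and shifts the voltage at which they inactivate.

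Levels are given as log2 values after RMA, the summary of probe signals that the authors used, so a difference of 1 is a doubling. P14 and P3 were compared with limma's moderated test over the 3 nuclei, with age and nucleus as additive terms, and p-values were adjusted over all tested genes (Benjamini-Hochberg). The spread behind these p-values and the ± values is how far the age difference varied between nuclei, not between animals. Moderation draws it toward the spread of other genes (3.94 prior against 2 residual degrees of freedom). It can therefore be smaller or larger than the gene's own spread between nuclei. In the same fit nuclei were compared over the 2 ages. A different age effect in different nuclei could not be tested, because each nucleus had 1 array per age. Probe sets differ in how well they bind, so levels are compared between arrays and never between genes.

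The 250 bases before the RefSeq start of the genes with the largest rises, Kcng4 and Kcnc1, are printed because they differ plainly in base composition. They are in the orientation of the gene, from RefSeq on build GRCm38.p6. The window of Kcng4 is chr8:119635681-119635930 on the minus strand, and that of Kcnc1 is chr7:46396218-46396467 on the plus strand. Capitals mark the E box CAGCTG and the GC box GGGCGG, on either strand.
Kcng4: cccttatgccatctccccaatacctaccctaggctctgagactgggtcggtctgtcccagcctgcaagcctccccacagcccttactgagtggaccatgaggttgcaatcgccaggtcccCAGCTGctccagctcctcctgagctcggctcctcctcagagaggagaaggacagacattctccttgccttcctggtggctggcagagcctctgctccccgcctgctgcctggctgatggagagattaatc
Kcnc1: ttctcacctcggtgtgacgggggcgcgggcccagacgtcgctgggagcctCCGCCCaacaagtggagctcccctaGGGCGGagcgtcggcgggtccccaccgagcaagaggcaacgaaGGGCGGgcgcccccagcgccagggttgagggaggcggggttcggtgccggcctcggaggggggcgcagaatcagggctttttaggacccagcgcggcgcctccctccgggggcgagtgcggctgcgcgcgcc

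The Kcnc1 window held 30 CG pairs, more than or equal to 94.8% of 32851 windows of RefSeq starts, whose median was 6. The Kcng4 window held 4. The GC box occurred 3 times before Kcnc1, at 200, 175 and 132 bases from the start, and 32.7% of all windows held at least 1. Kcng4 had none, and 1 E box at 130 bases, which 13.0% of all windows held. The window of Kcnc4 had 12 CG pairs and 1 GC box, and the 4 windows of Kcnc2 had 2 to 5 CG pairs. Neither the TATA box TATAAA nor the core TGACGT of the cAMP response element was found in any window of these genes, against 12.4% and 6.47% of all windows. Each Kcnc2 window held 1 E box of the letters CAGCTG, and 1 of them a GC box. Of these 4 windows 3 overlap, and the E box in those 3 is the same site. These matches describe the letters only.

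Kcng4, the silent subunit, had the largest change with age. At P3 the VCN array read 4.85, the LSO array 4.63 and the MNTB array 3.29. At P14 the VCN array read 9.13, the LSO array 8.55 and the MNTB array 7.73. Every P14 array lay above every P3 array, and VCN was highest and MNTB lowest at both ages. The rise was 4.27 log2 units in VCN, 3.93 in LSO and 4.44 in MNTB. Its mean was 4.22 ± 0.15 (moderated standard error, 3 nuclei, limma adjusted p = 0.000243), or 18.6-fold as measured. The MNTB value at P3 lay below the highest value of the bacterial tryptophan control probe sets (4.42), which match no mouse RNA, and the LSO and VCN values at P3 stood only a little above it. Its rise in MNTB is therefore at least 3.32 log2 units, or at least 9.96-fold, and the order of the 3 rises cannot be read. With values floored at that control the mean rise was 3.84 ± 0.20. Kcng4 passed the filter only through its P14 values, and with no filter the limma adjusted p was 0.000568. Kcng4 has 1 probe set, so no second one could be set beside it.

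Kcnc1, the Kv3.1 gene, rose in all 3 nuclei. At P3 it read 9.63 for VCN, 9.64 for LSO and 9.75 for MNTB. At P14 it read 11.28 for VCN, 10.46 for LSO and 11.35 for MNTB. Every P14 array lay above every P3 array. The largest gap between nuclei at P3 was 0.12, whereas at P14 LSO stood below the other nuclei by 0.82 and 0.89. The rise was 1.65 log2 units in VCN, 1.59 in MNTB and 0.82 in LSO, with a mean of 1.35 ± 0.17 (adjusted p = 0.00247), or 2.56-fold. The 3 rises of Kcnc1 spanned 0.83 log2 units, more than in 89.4% of tested genes, of which the median span was 0.35. Whether LSO differed in its rise was not tested.

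**Figure D1:**
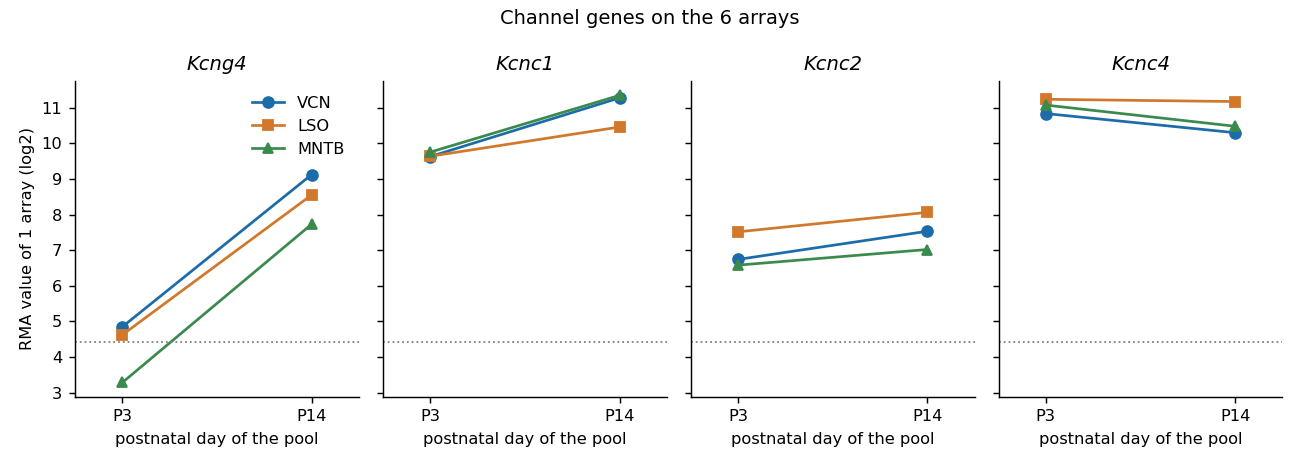
RMA values (log2, vertical axis) of Kcng4, Kcnc1, Kcnc2 and Kcnc4 at P3 and P14 (horizontal axis), 1 point per array, with a line for each nucleus (VCN circles, LSO squares, MNTB triangles) and a dotted line at the highest tryptophan control value of 4.42. Kcng4 rose steeply in each nucleus, Kcnc1 parted at P14 into VCN and MNTB above LSO, Kcnc2 and Kcnc4 were highest in LSO at both ages, and heights cannot be compared between panels.

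Kcnc1 has 4 probe sets, and they did not all move the same way. The one used above, 1443855_at, was joined by 1423559_at, which rose by 1.61 in VCN, 0.76 in LSO and 1.49 in MNTB (mean 1.29 ± 0.19, adjusted p = 0.00312 in a limma fit over all probe sets). Probe set 1456965_at rose by 1.65, 0.39 and 0.80 in the same order (mean 0.95 ± 0.23, adjusted p = 0.0197). In each of these 3 probe sets LSO had the smallest rise and the lowest value at P14. At P3 the nuclei lay further apart in 1456965_at (7.92 in VCN, 8.31 in LSO and 8.66 in MNTB) than in 1443855_at. They did so in 1423559_at too (6.79, 6.58 and 6.98), where LSO was already lowest at P3. The remaining one, 1456944_at, went from 7.74 to 7.70 in VCN, from 7.76 to 6.75 in LSO and from 7.56 to 6.88 in MNTB, a mean difference of -0.58 ± 0.20 that did not pass (adjusted p = 0.0592). In it too LSO was lowest at P14. With the median of the 4 probe sets in place of the brightest, Kcnc1 was at 0.66 and did not pass (adjusted p = 0.0569). The sources used here do not say which part of the transcript each probe set reads.

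**Figure D2:**
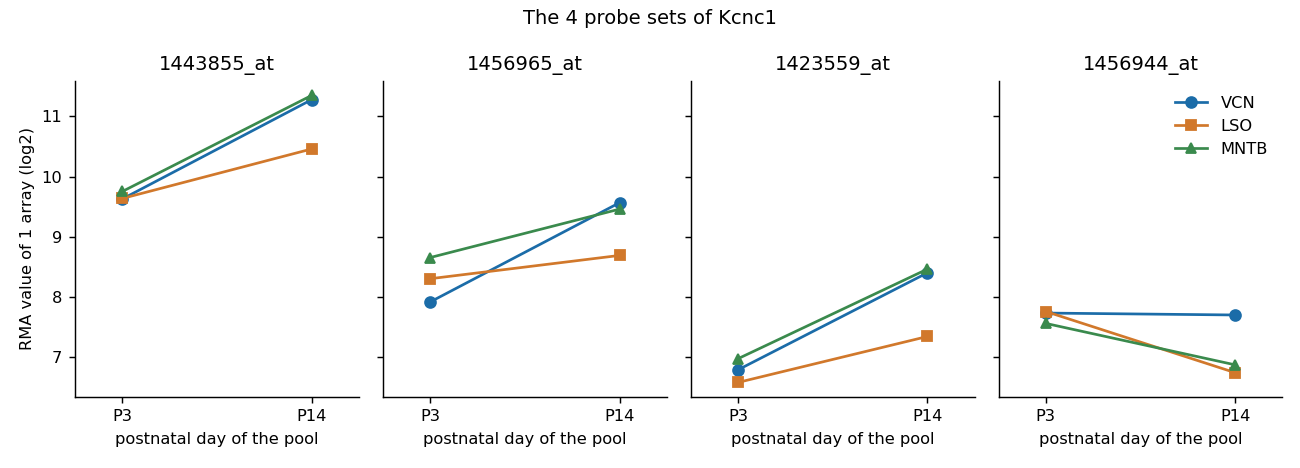
RMA values (log2, vertical axis) of the 4 probe sets of Kcnc1 at P3 and P14 (horizontal axis), 1 point per array and a line per nucleus. The 3 panels on the left rise with LSO lowest at P14 (10.46, 8.69 and 7.35), and 1456944_at on the right is lower at P14 in LSO and MNTB and at 7.74 and 7.70 in VCN.

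Kcnc2, which encodes Kv3.2, rose less. Its P3 values were 6.74 (VCN), 7.52 (LSO) and 6.58 (MNTB). Its P14 values were 7.53 (VCN), 8.06 (LSO) and 7.02 (MNTB). The ages overlapped, since LSO at P3 lay above MNTB at P14, and LSO was highest and MNTB lowest at both ages. Its rise measured 0.79 (VCN), 0.55 (LSO) and 0.44 (MNTB), with a mean of 0.59 ± 0.13 (adjusted p = 0.0140), or 1.51-fold. The call did not survive leaving out either LSO array (adjusted p = 0.0586 without P3 and 0.0593 without P14), although the rise was then 0.62, nor a model without nucleus (adjusted p = 0.196).

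Kcnc4, whose product Kv3.4 is the fast-inactivating member of the family, had lower values at P14. Its P3 values were 10.84 (VCN), 11.24 (LSO) and 11.08 (MNTB). Its P14 values were 10.30 (VCN), 11.18 (LSO) and 10.48 (MNTB). The ages overlapped through LSO. VCN and MNTB were lower at P14 by 0.54 and 0.59, while LSO differed by only -0.064 and held the highest value at both ages. The mean difference was -0.40 ± 0.12 (adjusted p = 0.0417), close to the threshold of 0.05. It did not pass without either VCN array or either MNTB array (adjusted p = 0.116 to 0.209), nor with no filter (0.0597), no intensity trend (0.0721), no nucleus term (0.206) or the median of its probe sets (-0.26, adjusted p = 0.111). The probe set used, 1425090_s_at, has a name ending that marks probes shared by more than 1 transcript. The other probe set, 1425089_at, lay between 6.69 and 7.01 on all arrays and differed by -0.12 ± 0.12 (adjusted p = 0.459).

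For age, then, 3 of the 4 analysed genes passed higher and 1 lower, where 41.0% of all tested genes passed in either direction and 23.4% passed higher. With so many genes passing, and Kcng4 in the test only through its P14 values, the count of 4 says little by itself. The sizes differed widely, from 4.22 for Kcng4 through 1.35 for Kcnc1 and 0.59 for Kcnc2 to -0.40 for Kcnc4. Ordered from the lowest difference to the highest, Kcnc1 stood at 96.5% of the tested genes, Kcnc2 at 85.0% and Kcnc4 at 17.0%.

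Other measures moved with age as well. The 3' minus 5' difference of Gapdh, a gauge of RNA and amplification quality, was 1.21 to 1.41 at P3 and 1.06 to 1.11 at P14, and pools held 6 animals at P3 and 3 at P14. Against 23.4% of all tested genes that passed higher for age and 17.7% lower, all 9 tested genes of mature oligodendrocytes rose. The mean of that list went from 8.29 to 9.94 on the P3 arrays to 12.16 to 12.35 on the P14 arrays. Of 12 neuronal genes 3 rose and 5 fell, with list means of 11.95 to 12.08 at P3 and 11.56 to 11.83 at P14. Of 10 astrocyte genes 5 rose and 2 fell (10.52 to 10.78, then 11.16 to 11.38), and of 7 microglial genes 4 rose and none fell (7.57 to 8.15, then 8.45 to 8.80). At P3 the oligodendrocyte list was highest in VCN (9.94, against 8.29 in LSO and 8.61 in MNTB), where Kcng4 was highest too. MNTB lay above LSO in this list but below it in Kcng4 (3.29 against 4.63). At P14 the means of the list lay close together, at 12.16 in VCN, 12.25 in LSO and 12.35 in MNTB. Kcng4 had the opposite order at P14 (9.13 in VCN, 8.55 in LSO and 7.73 in MNTB). In such tissue samples a change in the number of cells of a type and a change in RNA per cell cannot be told apart, and the part of these measures in the channel results was not tested.

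Between nuclei the clearest difference was that of Kcng4, lower in MNTB than in VCN by 1.56 log2 units at P3 and 1.39 at P14. The mean of -1.48 ± 0.18 passed (adjusted p = 0.0362), in a comparison where 0.602% of tested genes did. The call was lost when values were floored at the tryptophan control (-0.91, adjusted p = 0.299), with no filter (adjusted p = 0.0541), and without any 1 of the 6 arrays except VCN at P3 (adjusted p = 0.0794 to 0.234, and 0.0493 without VCN at P3). At P14 alone, where all 3 arrays lay well above the control, MNTB was 1.39 below VCN and 0.82 below LSO. Over both ages MNTB minus LSO was -1.08 (95% interval -1.52 to -0.64, adjusted p = 0.209), which includes the MNTB value below the control, and -0.52 with values floored (adjusted p = 0.813). VCN was above LSO by 0.40 (-0.042 to 0.84, adjusted p = 0.606), and by 0.18 without LSO at P14 and 0.61 without LSO at P3. These intervals are not adjusted for the number of genes.

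None of the contrasts between nuclei passed for the Kv3 genes. Only 0.162% of tested genes passed for MNTB minus LSO and 0.370% for VCN minus LSO. Kcnc2 was lower in MNTB than in LSO by 0.94 at P3 and 1.04 at P14 (mean -0.99 ± 0.16, unadjusted p = 0.000769 and adjusted p = 0.178 by limma), and lower in VCN than in LSO by 0.77 and 0.53 (mean -0.65 ± 0.16, adjusted p = 0.264). Kcnc4 was lower in VCN than in LSO by 0.40 and 0.87 (mean -0.64 ± 0.15, adjusted p = 0.241) and lower in MNTB than in LSO by 0.16 and 0.69 (mean -0.43 ± 0.15, adjusted p = 0.646). The other Kcnc4 probe set, 1425089_at, did not have LSO highest at P3, where MNTB was 0.16 above it, and MNTB and LSO were equal in it at P14. With the median of the Kcnc4 probe sets the means were -0.35 for VCN minus LSO and -0.17 for MNTB minus LSO (adjusted p = 0.513 and 0.940). Over both ages Kcnc1 was above LSO by 0.50 in MNTB (-0.015 to 1.02, adjusted p = 0.743) and by 0.40 in VCN (-0.11 to 0.92, adjusted p = 0.689). Both values hung on the LSO arrays, at 0.10 and 0.0054 without LSO at P14 and at 0.90 and 0.80 without LSO at P3. Between MNTB and VCN the differences were 0.098 for Kcnc1 (-0.42 to 0.62), -0.34 for Kcnc2 (-0.72 to 0.048) and 0.21 for Kcnc4 (-0.15 to 0.57).

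**Figure D3:**
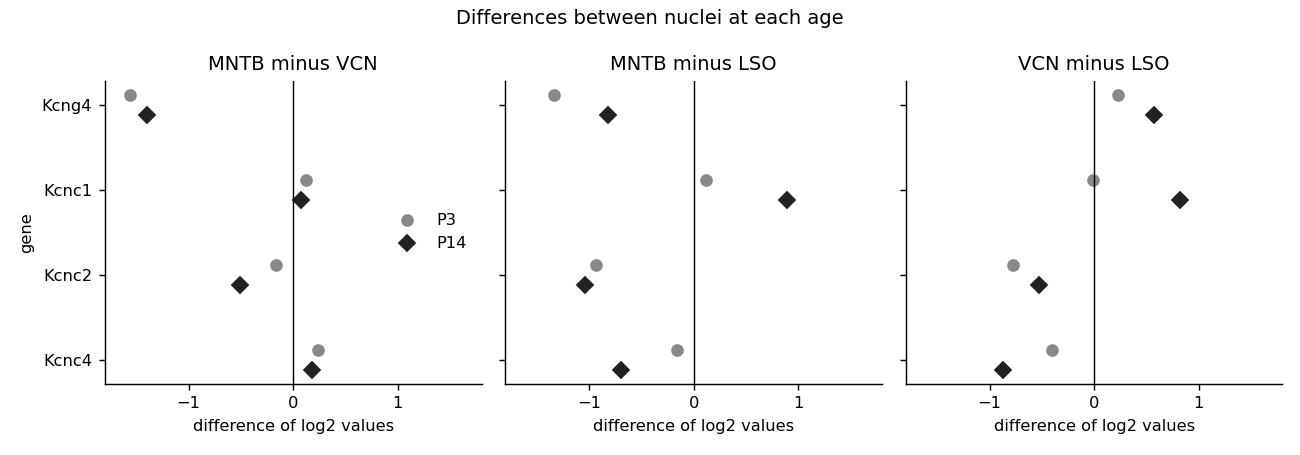
Difference of log2 values (horizontal axis) between 2 nuclei for Kcng4, Kcnc1, Kcnc2 and Kcnc4 (vertical axis), with P3 as grey circles and P14 as black diamonds, each from 2 arrays. Kcng4 lies below 0 in MNTB against both other nuclei at both ages, with the MNTB value at P3 under the control, Kcnc2 and Kcnc4 lie below 0 in both panels against LSO, and Kcnc1 lies near 0 at P3 and at 0.89 and 0.82 against LSO at P14.

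Genes listed as markers of other cell types also differed between the dissections. The arrays do not show whether such cells lay within a nucleus or beside it. The list of motor neuron genes, with a mean of 7.96 and 7.55 in LSO at P3 and P14, lay at 4.24 to 4.87 on the other 4 arrays. All 4 tested members were higher in LSO than in either other nucleus. Among them were the choline transporter gene Slc5a7 and the acetylcholine transporter gene Slc18a3. Chat and Mnx1 stayed at or below the tryptophan control on all 6 arrays. The list of cerebellar granule and Purkinje cell genes had means of 8.89 and 9.47 in VCN and 7.39 to 7.84 elsewhere. Of its 9 tested members 4 passed as lower in MNTB than in VCN, namely Cbln1, Neurod1, Pax6 and Zic1. Cbln3 and Pcp4 were also lower there over both ages but did not pass. Calb1, Car8 and Pcp2 went the other way, higher in MNTB than in VCN over both ages, and did not pass either. The higher list mean in VCN therefore does not hold for each gene of the list. Gabra6, a marker of mature granule cells, stood at 7.97 in VCN at P14 and at or below the control on the other 5 arrays. The list of choroid plexus genes had a mean of 6.47 in VCN at P14 and 4.55 to 5.49 elsewhere, but its genes differed. Ttr read 12.58 in VCN at P14 and 6.61 to 6.93 on the other 5 arrays, while Kl stayed at 4.62 to 4.98 throughout. Otx2 went from 9.34 at P3 to 6.52 at P14 in VCN and read 3.04 to 3.34 in the other nuclei. The part of these cell type lists in the differences between nuclei given above was not tested.

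Among other genes of the Kv2 and Kv3 families and the silent subunits that join Kv2 channels, some rose and others fell. Of 16 such genes, members included, 12 had a probe set of their own and 9 were tested. Of these 4 rose and 3 fell, where 23.4% of all tested genes passed higher and 17.7% lower. The median of the 9 was -0.076, against 0.032 over all tested genes. Among silent subunits, Kcns3 (Kv9.3) rose together with Kcng4, from 5.15 to 5.54 at P3 to 5.82 to 6.45 at P14, by 0.88 ± 0.14 (adjusted p = 0.00455), and like Kcng4 it passed the filter only through its P14 values. Kcns2 (Kv9.2) went the other way, from 8.60 to 9.16 at P3 to 7.39 to 7.56 at P14. It fell by 1.42 on the log2 scale, 2.67-fold, with no overlap between ages (adjusted p = 0.000799). Kcnf1 (Kv5.1) differed by -0.63 ± 0.20 (adjusted p = 0.0481), a call that was lost without either LSO array (-0.38, adjusted p = 0.196 and 0.193) or either MNTB array (adjusted p = 0.138 and 0.140), with arrays centred on their medians (0.0531), with no filter (0.0693), no intensity trend (0.0529) or no nucleus term (0.0659), and at the median over its probe sets (-0.37, adjusted p = 0.0626). Kcng2 (-0.088, adjusted p = 0.591) and Kcns1 (-0.076, adjusted p = 0.736) did not pass. Kcng1 at 4.83 to 5.05, Kcnv1 at 3.54 to 4.42 and Kcnv2 at 2.25 to 2.26 lay under the filter on every array. The other genes of the list, Kcnb2 and Kcng3 among them, were not analysed here.

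**Figure D4:**
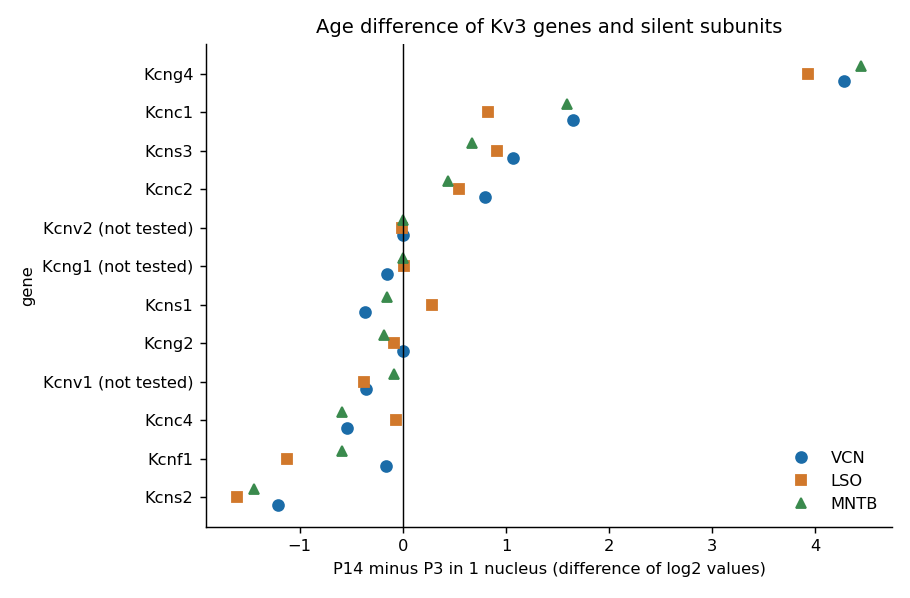
P14 minus P3 difference of log2 values (horizontal axis) of 12 genes of the Kv3 family and the silent subunits (vertical axis, sorted by the mean), 1 point per nucleus. Kcng4 stands apart at 3.93 to 4.44, Kcnc1, Kcns3 and Kcnc2 lie above 0 and Kcnc4, Kcnf1 and Kcns2 below 0 in each nucleus, and the 3 genes marked as not tested lay under the filter on low values.

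Genes of proteins known to bind or modify Kv2 and Kv3 channels moved both ways. Of 15 tested, 3 rose and 3 fell, a share close to the 41.0% of all tested genes that passed, with a median of 0.048. Stx1a, the gene of the presynaptic fusion protein syntaxin 1A, fell by 1.97 on the log2 scale (adjusted p = 0.00108). Hax1 rose by 0.68 (adjusted p = 0.00186). Fmr1, whose RNA-binding protein binds Kcnc1 mRNA in mouse, fell by 0.49 (adjusted p = 0.0125), and the protein kinase C gene Prkcb fell by 0.50 (adjusted p = 0.00767), both not without either MNTB array (adjusted p = 0.0572 to 0.0837). At the median over its probe sets Prkcb was at -0.80. The kinase gene Cdk5 rose by 0.37 (adjusted p = 0.0178, but 0.0512 to 0.125 without either LSO or either MNTB array, and 0.217 at the median over its probe sets) and Snap25 by 0.28 (adjusted p = 0.0149, but 0.0584 and 0.0614 without either MNTB array, and 0.0793 with no intensity trend).

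Most genes of a list known from fast-spiking neurons, which holds channels, calcium-binding, synaptic, cytoskeletal and matrix proteins, rose. Of 18 tested 14 rose and none fell, with a median of 1.16, where 23.4% of all tested genes passed higher. The list was chosen with earlier results of these data known. Pvalb, the parvalbumin gene, rose by 3.44, the sodium channel beta subunit genes Scn4b and Scn2b by 3.18 and 1.62, the perineuronal link protein gene Hapln4 by 2.45, the low-threshold channel gene Kcna1 by 2.37 and the Kv1 beta subunit gene Kcnab2 by 1.82 (adjusted p = 0.000243 to 0.000508). Kcnc1 at 1.35 lay near the median of this list and Kcng4 above all the genes named from it. With 41.0% of all tested genes passing, 6 of 21 other tested voltage-gated potassium channel genes and their partners rose and 4 fell. The median of these genes was 0.070. They included Kcna1 and Kcnab2 above, Kcnab3 at 1.88, Kcnab1 at 1.81 and Kcna2 at 1.23 among the rises and Kcnip1, a partner of Kv4 channels, which fell by 1.06 (adjusted p = 0.000389 to 0.0155 over these 6 genes). The Kcnab1 rise was 3.12 in VCN and 1.29 in LSO, it was 1.15 without either VCN array, and it did not pass without nucleus in the model (adjusted p = 0.143).

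The closest profiles over the 6 arrays were found by the root mean square difference of log2 values after each gene was centred on its own mean. For Kcng4 these were Dio2, the deiodinase that activates thyroid hormone, at 0.43, Dmp1 at 0.49 and the receptor gene Gpr62 at 0.51. Dio2 rose from 7.50 to 11.90 in VCN, 8.17 to 11.63 in LSO and 6.97 to 11.46 in MNTB. Like Kcng4, Dio2 and Dmp1 were lowest in MNTB at both ages, while Gpr62 was highest there at P14. Dmp1, however, lay below the control in LSO and MNTB at P3, and like Kcng4 it passed the filter only through its P14 values. For Kcnc1 the closest genes were Bcar3 at 0.065, Ttc39b at 0.078 and Cds1 at 0.12. All 3 had their lowest P14 value in LSO, such as 7.44 for Bcar3 against 8.21 in VCN and 8.36 in MNTB. For Kcnc2 they were Aifm3 at 0.068, Hebp2 at 0.14 and Serpinb6a at 0.17, each highest in LSO at both ages. Kcnc4 spanned 0.94 log2 units, less than the 1 unit set for this search. With 6 arrays and 12958 genes, close matches are easily found.

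**Figure D5:**
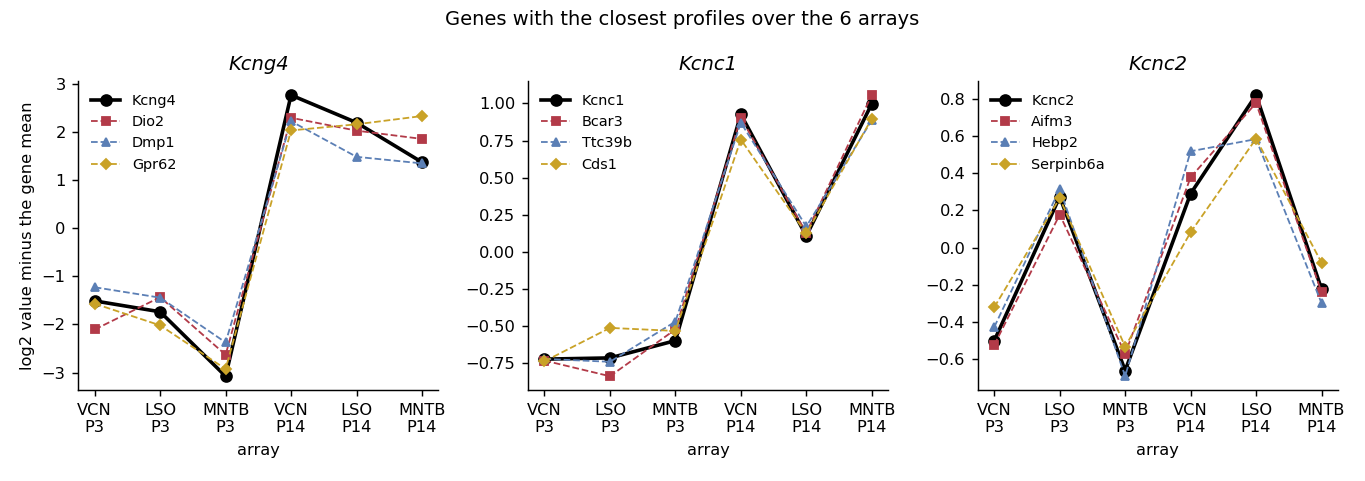
Log2 value minus the gene's mean (vertical axis) on the 6 arrays (horizontal axis) for Kcng4, Kcnc1 and Kcnc2 as black lines and, for each, the 3 tested genes of closest profile as dashed lines. The lines for Kcnc1 dip together at LSO P14 and those for Kcnc2 peak at LSO, whereas the genes nearest Kcng4 stay 0.43 to 0.51 away in root mean square terms.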

How the data were processed

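Values were taken from 6 arrays, 1 per nucleus and age. Per the submitters' processing notes the authors made the deposited log2 values with RMA, the version of which the sources used here do not state. RNA from 200 µm slices was amplified from 20 ng, per the labels' protocols. Values ran from 1.84 to 14.37 and array medians from 6.27 to 6.31. The number of arrays limits the precision. Of 45101 probe sets, 64 of them controls, 34945 named 1 gene, 932 several and 9160 none here.

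The brightest probe set stood for each gene, and sets named _x_at were used only where a gene had no other. Genes were tested when its mean reached 5.57, the 40th percentile over the probe sets. limma 3.58.1 in R 4.3.3 was fitted across all tested genes with age and nucleus as terms and an intensity trend (2 residual and 3.94 prior degrees of freedom, two-sided, Benjamini-Hochberg threshold 0.05), and was tested on simulated data. The genes and lists were chosen with earlier results of these data known. Named besides them are the Kv2, Kv3 and silent subunit genes, up to 6 genes per list by size among those past the threshold, and the 3 closest profiles per gene spanning at least 1 log2 unit. Alternatives were the filter, the probe set, the scaling, the moderation, a floor, the nucleus term and leaving out each array. Promoter windows came from RefSeq tables on GRCm38.p6.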

Additional observations from a re-analysis of the deposited data

How the results depend on the processing

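The rises of Kcng4 (4.10 to 4.36) and Kcnc1 (1.21 to 1.62) passed in all 6 fits with 1 array left out. With nucleus as a term, leaving out either array of a nucleus takes that nucleus out of the age comparison. The 6 fits therefore give only 3 distinct estimates of each rise, each from 2 nuclei. Of the 4 channel genes 3 passed for age in each of those fits, 2 with the probe sets of each gene replaced by their median and 2 (Kcng4 and Kcnc1) without nucleus in the model. The count of all genes passing for age, 5317, was 3145 to 4657 with 1 array left out, lowest without the MNTB array of P14 (3145) and of P3 (3176). For MNTB minus VCN the count of channel genes, 1, was 0 with no filter, with the 60th percentile as filter (which left Kcng4 untested) and with values floored at the tryptophan control, and 0 to 1 with 1 array left out. For the other contrasts between nuclei it was 0 under every alternative run. The Kcnc1 difference of 0.098 between MNTB and VCN was -0.12 without VCN at P3 and -0.082 without MNTB at P14, and ranged up to 0.32. The age difference of probe set 1456944_at of Kcnc1 was -0.58, and that of Kcns1 ranged from -0.26 (without either LSO array) to 0.068 (without either VCN array). Age was compared within nuclei, since nucleus is a term of the model, and the labels give no replicate numbers for any further pairing.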
